A study of Arabidopsis thaliana with 6 samples.

Results

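The genes described are 10 genes of indole glucosinolate synthesis in seeds of Arabidopsis thaliana, out of 32884 rows in each expression table. They cover the enzymes that turn tryptophan into indole glucosinolates, in the order of the pathway CYP79B2, CYP79B3, CYP83B1, GGP1, SUR1, UGT74B1, SOT16 and IGMT5, together with the transcription factor gene MYB34 and the transporter gene GTR2. All 10 have a row in the tables and were found there by locus identifier. They were put together because some of them were known to be higher in the mutant in these same libraries, so the genotype differences of the 10 are given as a description. Where a fit over all genes called a member, that call is part of the description and not independent evidence. Whole seeds were compared by messenger RNA sequencing, 3 libraries of hda15-1, which carries a mutant allele of HDA15, a gene for a histone deacetylase, in ecotype Col-0, and 3 libraries of wild-type Col-0. Seeds of both genotypes were harvested from plants in long days and dried for about 1 month. They were soaked for 1 h and given 5 min of far-red light at 3.82 µmol per square metre and second. They were then left 12 h in darkness. A temperature of 22 °C is given for every library. Far-red light turns phytochrome to its inactive form, and such seeds do not normally germinate. The mutant is represented by 1 allele, and nothing in the labels says that the 3 libraries of each genotype were made from different seed batches, so the spread between them may be technical.

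Glucosinolates are sulfur-rich glucosides of the cabbage order that are stored in tissues, seeds included, and release toxic products when myrosinase cuts them. The indole branch starts from tryptophan, which CYP79B2 and CYP79B3 oxidise to indole-3-acetaldoxime, a compound that can also be drawn into auxin and the phytoalexin camalexin. CYP83B1 commits the oxime to glucosinolates, a glutathione conjugate is trimmed by GGP1 and cleaved by the C-S lyase SUR1, UGT74B1 adds glucose, and SOT16 adds sulfate. IGMT5 methylates the hydroxylated indole ring of the finished compound. MYB34 activates genes of the branch, and GTR2 moves glucosinolates into cells.

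Values are FPKM, read fragments divided by transcript length and library size, which can be compared between genes because they are per length. Read totals are unknown. A rough estimate from the steps between low values, few of which fell on whole reads, put 1 read over 1 kb of transcript at 0.0876 to 0.114 FPKM in hda15-1 and 0.0836 to 0.105 FPKM in wild type. HDA15 (AT3G18520) itself was at 0.338, 0.651 and 0.417 FPKM in hda15-1, against 16.1, 13.0 and 14.8 FPKM in wild type, so every library carried the level its label implies (adjusted p = 0.000379, limma). Seed albumin SESA3 was at 10026 to 22913 FPKM in the 6 libraries, and the leaf-type light-harvesting gene LHCB1.3 at 2.0 to 4.99 FPKM. RBCS1A, a Rubisco small subunit gene, was at 350 to 615 FPKM and so was not low. In whole seeds, more cells of a type and more RNA per cell cannot be told apart.

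The stretches of DNA before these genes are shown first, to let the 10 genes be compared by sequence. MYB34 belongs to the R2R3-MYB family, which is known to bind sites of the form ACCNAC. The 300 bases before the annotated gene start were read from TAIR10.1, whose locus positions were used throughout, 5′ to 3′ on the strand of the gene. Capitals mark ACCNAC (or its complement GTNGGT), the G-box CACGTG, which basic helix-loop-helix factors such as PIF1 bind, and the related CACATG (or CATGTG). The first pair makes the oxime, CYP83B1 and SOT16 differed most between genotypes, SUR1 holds the only G-box, and MYB34 is the regulator.
CYP79B2, chr4:18524742-18525041, plus strand: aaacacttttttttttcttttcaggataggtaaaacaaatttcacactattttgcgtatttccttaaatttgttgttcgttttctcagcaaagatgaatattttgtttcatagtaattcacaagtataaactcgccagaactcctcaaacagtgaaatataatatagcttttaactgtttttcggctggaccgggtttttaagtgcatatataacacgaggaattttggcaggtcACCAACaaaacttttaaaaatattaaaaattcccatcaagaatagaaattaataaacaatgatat
CYP79B3, chr2:9488113-9488412, plus strand: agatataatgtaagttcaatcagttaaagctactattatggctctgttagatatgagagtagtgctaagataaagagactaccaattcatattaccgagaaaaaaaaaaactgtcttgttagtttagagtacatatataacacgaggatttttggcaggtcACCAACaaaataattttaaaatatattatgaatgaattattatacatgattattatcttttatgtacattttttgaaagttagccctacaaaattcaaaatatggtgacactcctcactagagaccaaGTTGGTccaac
CYP83B1, chr4:15275405-15275704, minus strand: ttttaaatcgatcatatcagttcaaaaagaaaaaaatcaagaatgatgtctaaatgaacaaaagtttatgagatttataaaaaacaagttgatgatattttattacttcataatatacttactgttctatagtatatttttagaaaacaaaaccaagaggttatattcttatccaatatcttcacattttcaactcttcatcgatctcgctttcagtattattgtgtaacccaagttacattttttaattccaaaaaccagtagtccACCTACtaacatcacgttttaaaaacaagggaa
SUR1, chr2:8880441-8880740, minus strand: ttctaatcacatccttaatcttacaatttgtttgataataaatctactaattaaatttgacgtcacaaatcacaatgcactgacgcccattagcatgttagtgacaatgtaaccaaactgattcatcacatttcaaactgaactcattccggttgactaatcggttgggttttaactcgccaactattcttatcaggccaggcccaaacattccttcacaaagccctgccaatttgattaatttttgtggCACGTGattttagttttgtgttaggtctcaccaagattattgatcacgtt
SOT16, chr1:27865695-27865994, minus strand: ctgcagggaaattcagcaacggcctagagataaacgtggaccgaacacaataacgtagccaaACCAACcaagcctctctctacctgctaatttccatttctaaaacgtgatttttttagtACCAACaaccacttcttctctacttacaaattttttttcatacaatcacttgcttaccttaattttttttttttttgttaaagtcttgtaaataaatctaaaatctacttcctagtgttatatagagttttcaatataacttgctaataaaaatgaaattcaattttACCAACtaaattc
MYB34, chr5:24493991-24494290, plus strand: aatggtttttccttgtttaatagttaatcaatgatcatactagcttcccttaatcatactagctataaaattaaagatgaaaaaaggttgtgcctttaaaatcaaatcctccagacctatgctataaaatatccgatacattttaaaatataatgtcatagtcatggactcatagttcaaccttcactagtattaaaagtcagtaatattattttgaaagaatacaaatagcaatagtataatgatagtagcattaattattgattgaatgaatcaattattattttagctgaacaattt

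A match to ACCNAC on either strand lay in 5 of the 10 windows, those of CYP79B2, CYP79B3, CYP83B1, UGT74B1 and SOT16, and 27.2% of 27443 windows of protein-coding genes hold one. SOT16 had 3 such matches, all ACCAAC, and CYP83B1 had 1, ACCTAC, starting 33 bases before the gene. The G-box lay in 1 of the 10 windows, that of SUR1, where 7.09% of all windows hold one. CACATG or CATGTG lay in 1 window, that of IGMT5, against 13.1% of all. The looser E-box CANNTG, which contains both of these, lay in 5 of the 10 and in 61.9% of all windows. None of the 4 motifs was found before MYB34 or GTR2. These matches describe letters in a window of 300 bases and say nothing of binding.

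CYP79B2 and CYP79B3 share a stretch of 40 bases before their starts that differs at 1 position. Counted from 1 at its 5′ end, with the base of CYP79B2 first, the difference is A18T, and capitals mark ACCAAC. The longest identical run within it is 22 bases, which 2 of the 27443 windows hold, those of this pair. The ACCAAC match of each gene lies in this stretch, so the pair does not give independent matches.
CYP79B2, chr4:18524947-18524986, plus strand: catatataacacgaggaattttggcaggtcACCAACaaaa
CYP79B3, chr2:9488244-9488283, plus strand: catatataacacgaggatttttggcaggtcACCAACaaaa

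The genotype difference was uneven along the pathway. It was small in absolute level at the first step and largest at CYP83B1. GGP1, SUR1 and UGT74B1 differed less, and SOT16 and IGMT5 again differed more. The mean of every one of the 10 genes was higher in hda15-1 than in wild type. A minimum mean of 1 FPKM over the 6 libraries was passed by 8 of the 10, and MYB34 passed it through its level in hda15-1. In the fit over all 15045 genes that passed, limma called 4 of the 8 higher in hda15-1 (CYP83B1, SOT16, IGMT5 and MYB34), where 0.199% of all genes tested were called higher, and none lower, where 0.0199% of all were. This count is a description, as the genes were chosen on this contrast. The median log2 difference was 1.51 over the 8 and 0.02 over all genes tested.

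**Figure D1:**
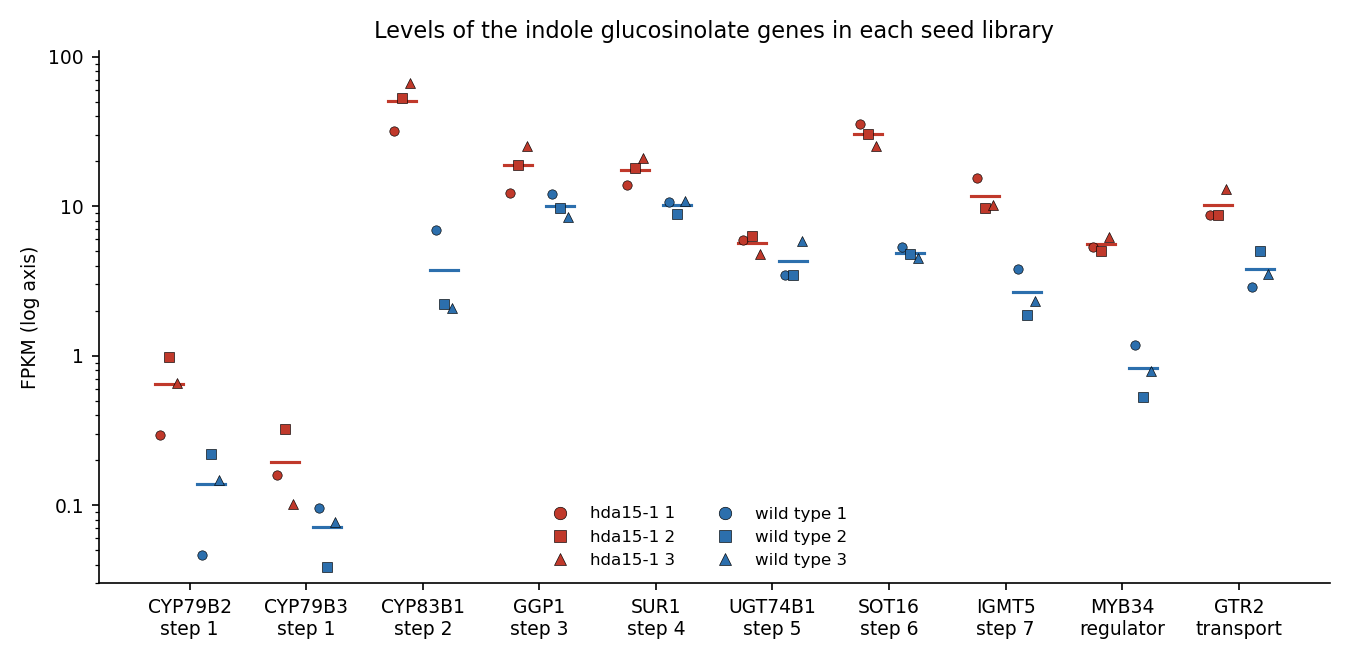
Level of each gene in each library, in FPKM on a log axis, in pathway order, with hda15-1 left of wild type; symbols mark the library number and short lines the group mean. CYP83B1 lies at 31.9 to 67.2 FPKM in hda15-1 and 2.10 to 6.89 FPKM in wild type, and the 2 CYP79B genes lie below 1 FPKM in all 6 libraries.

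At the first step both genes were barely detected. CYP79B2 (AT4G39950; chromosome 4, 18525042 to 18527602, plus strand) was at 0.297, 0.982 and 0.652 FPKM in hda15-1, against 0.0466, 0.219 and 0.146 FPKM in wild type. By the rough estimate of what 1 read is worth, these correspond to about 7, 19 and 11 reads in hda15-1 and about 1, 5 and 3 in wild type. The groups did not overlap, and the ratio of means was 4.69, but the counts are too few to size it closely. CYP79B3 (AT2G22330; chromosome 2, 9488413 to 9491404, plus strand), which does the same reaction, was at 0.158, 0.325 and 0.102 FPKM in hda15-1 and at 0.0962, 0.0386 and 0.0776 FPKM in wild type, which is about 1 to 6 reads a library by the same estimate. Its lowest hda15-1 value was 1.06 times its highest wild-type value, a gap smaller than the spread within either genotype. The transcripts of the pair share 3 words of 30 bases out of 2108 in CYP79B2. Exact words leave out near matches, and misplacing of reads between the pair was not tested.

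CYP83B1 (AT4G31500; chromosome 4, 15273410 to 15275404, minus strand), the next enzyme, was at 31.9, 52.9 and 67.2 FPKM in hda15-1, against 6.89, 2.23 and 2.10 FPKM in wild type. All 3 mutant libraries stood above all 3 wild-type ones, and the lowest mutant value was 4.63 times the highest wild-type value. Its log2 difference of 3.53 on the log2(FPKM + 1) scale was number 10 from the top among the 15045 genes tested. Means were 50.7 ± 17.8 FPKM in hda15-1 and 3.74 ± 2.73 FPKM in wild type (SD, n = 3 each). Of the genes above 0 in any library, 87.95% had a lower mean in hda15-1, and 46.98% had a lower mean in wild type. Wild type 1 held about 3 times the level of the other wild-type libraries, a ratio of 3.29 between the highest and the lowest. Among the mutant libraries, hda15-1 1 was the lowest. The log2 difference was 3.97 without wild type 1 and 3.82 without hda15-1 1, 2.06 between the 2 libraries numbered 1 and 4.26 among the 4 libraries numbered 2 and 3.

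The 3 enzymes that follow differed less. GGP1 (AT4G30530; chromosome 4, 14920376 to 14922519, plus strand), the gamma-glutamyl peptidase, was at 12.3, 18.9 and 25.3 FPKM in hda15-1, against 12.0, 9.73 and 8.45 FPKM in wild type. Library hda15-1 1 was close to wild type 1, at 1.02 times its level, and the other mutant libraries were above every wild-type library. SUR1 (AT2G20610; chromosome 2, 8877887 to 8880440, minus strand), the C-S lyase, was at 13.8, 17.9 and 21.1 FPKM in hda15-1 and at 10.7, 8.91 and 10.8 FPKM in wild type. UGT74B1 (AT1G24100; chromosome 1, 8525334 to 8527087, minus strand), the glucosyltransferase, was at 5.97, 6.30 and 4.77 FPKM in hda15-1 and at 3.48, 3.49 and 5.88 FPKM in wild type. UGT74B1 was the member whose groups overlapped. Log2 differences were 0.80 for GGP1, 0.73 for SUR1 and 0.36 for UGT74B1, and none of the 3 was called in any alternative. They were numbers 245, 291 and 1125 from the top among the genes tested. GGP1 and SUR1 thus lay above the 95th percentile of all genes tested, 0.45, and UGT74B1 below it.

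SOT16 (AT1G74100; chromosome 1, 27864345 to 27865694, minus strand), the sulfotransferase, was at 35.7, 30.7 and 25.5 FPKM in hda15-1, against 5.37, 4.78 and 4.53 FPKM in wild type. It had the tightest groups of the steps with a large difference: the coefficient of variation was 16.7% in hda15-1 and 8.82% in wild type. Its log2 difference was 2.41, and stayed between 2.30 and 2.54 when any 1 library was left out. It was called with the settings used throughout and in all 15 alternatives, which no other member was. SOT18, 151 bp away, and SOT17 are related sulfotransferase genes. The SOT16 transcript shares 3 of its 1321 words of 30 bases with SOT18 and 0 with SOT17, and misplacing of reads was not tested.

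IGMT5 (AT1G76790; chromosome 1, 28822186 to 28823727, minus strand), the methyltransferase of the last step, was at 15.5, 9.68 and 10.3 FPKM in hda15-1, against 3.81, 1.86 and 2.32 FPKM in wild type. The groups did not overlap, and its log2 difference was 1.81. Its call was borderline, with an adjusted p of 0.0478 in limma. With all 6 libraries the call was also lost with a pseudocount of 0.1, no filter, a minimum mean of 5 FPKM, either scaling or no variance trend, at adjusted p of 0.0554 to 0.110 in limma. With 1 library left out it was called in 1 of 6 fits, while its log2 difference stayed between 1.62 and 2.03. It overlaps AT1G76780 on the other strand by 71 bp, and that gene was at 0.0995 to 0.159 FPKM in hda15-1 and 0.117 to 0.148 FPKM in wild type.

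**Figure D2:**
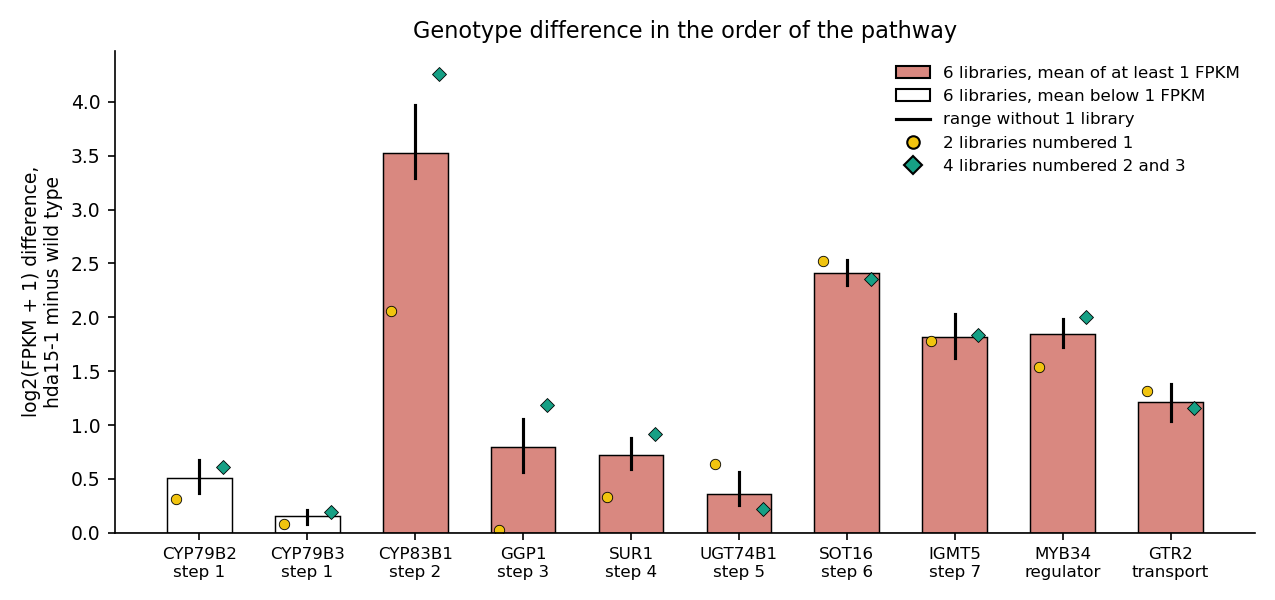
Bars give the difference of mean log2(FPKM + 1), hda15-1 minus wild type, in pathway order; open bars are genes with a mean below 1 FPKM, black lines span the values with any 1 library left out, circles are the 2 libraries numbered 1 and diamonds the 4 numbered 2 and 3. CYP83B1 has the tallest bar at 3.53, with 2.06 and 4.26 in its library subsets, and SOT16 follows at 2.41 with 2.53 and 2.36.

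MYB34 (AT5G60890; chromosome 5, 24494291 to 24496371, plus strand), the activator, was at 5.34, 5.05 and 6.28 FPKM in hda15-1, against 1.18, 0.527 and 0.790 FPKM in wild type. The lowest mutant value was 4.27 times the highest wild-type value, and the mutant libraries lay within 1.24 times of each other. The log2 difference was 1.85 with a pseudocount of 1 and 2.65 with a pseudocount of 0.1, since the wild-type level is below 1 FPKM. GTR2 (AT5G62680; chromosome 5, 25165137 to 25168060, minus strand), the transporter, was at 8.75, 8.75 and 13.0 FPKM in hda15-1, against 2.90, 5.01 and 3.54 FPKM in wild type. Its groups did not overlap, with a log2 difference of 1.21, and it was called in none of the fits. It overlaps HA11, a proton pump gene on the other strand, by 73 bp. HA11 was at 4.21 to 5.92 FPKM in hda15-1 and 4.32 to 5.89 FPKM in wild type. Whether counting used strand is not given in the sources used here.

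Over the 8 members tested, the groups did not overlap in 7, all with hda15-1 higher, which held for 5.78% of all genes tested. The log2 difference of every member was above 0 with the settings used throughout and in each of the 15 alternatives. Calls were less stable, at log2 differences that changed little for SOT16 and more for CYP83B1, which lay between 3.29 and 3.97 with 1 library left out. Without hda15-1 2, without hda15-1 3, without wild type 2 or without wild type 3, limma called 1 member, SOT16, where 0.0532%, 0.0666%, 0.0599% and 0.0664% of all genes were called higher. It called 3 members without hda15-1 1 and 4 without wild type 1, where 0.173% and 0.207% of all were called higher. Among the libraries numbered 2 and 3 alone it called 4, beside 0.488% of all. That subset leaves out the lowest hda15-1 library and the highest wild-type library of CYP83B1, so it is not a neutral check for that gene. A pseudocount of 0.5 gave 4 members (0.193% of all) and a pseudocount of 0.1 gave 3 (0.146%). Scaling to the same upper quartile (0.18%), scaling to the same median ratio (0.186%) and a fit with no variance trend (0.186%) each gave 3. The 2 members called with no filter (0.102%) were SOT16 and MYB34. With a minimum mean of 5 FPKM (0.124%) the 2 were CYP83B1 and SOT16, and MYB34 was not tested. With a block for library number (0.0864%) the 2 were SOT16 and IGMT5. CYP83B1, with the largest difference, thus lost its call with no filter (adjusted p = 0.0510, limma) and with the block (adjusted p = 0.0661, limma), at the same log2 difference of 3.53.

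The order of levels also differed between genotypes. In hda15-1, CYP83B1 was number 1 of the 10, with SOT16 at 30.6 ± 5.10 FPKM (SD, n = 3) overlapping it. GGP1 and SUR1 came next at means of 18.8 and 17.6 FPKM, IGMT5 and GTR2 followed at 11.8 and 10.2 FPKM, and each of these 4 overlapped the next in the order. The highest GGP1 value, 25.3 FPKM, lay just below the lowest SOT16 value, 25.5 FPKM. UGT74B1 and MYB34, at 5.68 and 5.55 FPKM, overlapped each other and lay below all of these, and the CYP79B genes were lowest. In wild type, CYP83B1 was number 6. SUR1 at 10.1 ± 1.07 FPKM and GGP1 at 10.1 ± 1.83 FPKM (SD, n = 3 each) were highest there, with overlapping ranges. A middle group followed in wild type, in the order SOT16, UGT74B1, GTR2, CYP83B1 and IGMT5, at means of 4.89 down to 2.66 FPKM, in which each gene's range overlapped the next one's. MYB34 at 0.833 FPKM stood below these, and CYP79B2 and CYP79B3, at 0.137 and 0.0708 FPKM with overlapping ranges, were lowest in wild type too. The enzymes of steps 2 to 6 spanned 8.91-fold in mean level in hda15-1 and 2.71-fold in wild type.

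Ratios between steps within a library, which do not depend on the scaling of that library, show the same change. CYP83B1 over GGP1 was 2.60, 2.80 and 2.65 in hda15-1, against 0.572, 0.229 and 0.248 in wild type. SOT16 over UGT74B1 was 5.97, 4.87 and 5.34 in hda15-1, against 1.54, 1.37 and 0.770 in wild type. GGP1 over SUR1, in contrast, was 0.890, 1.05 and 1.20 in hda15-1 and 1.12, 1.09 and 0.783 in wild type, with overlapping groups. These ratios use the values on which the genes were chosen and are a description.

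**Figure D3:**
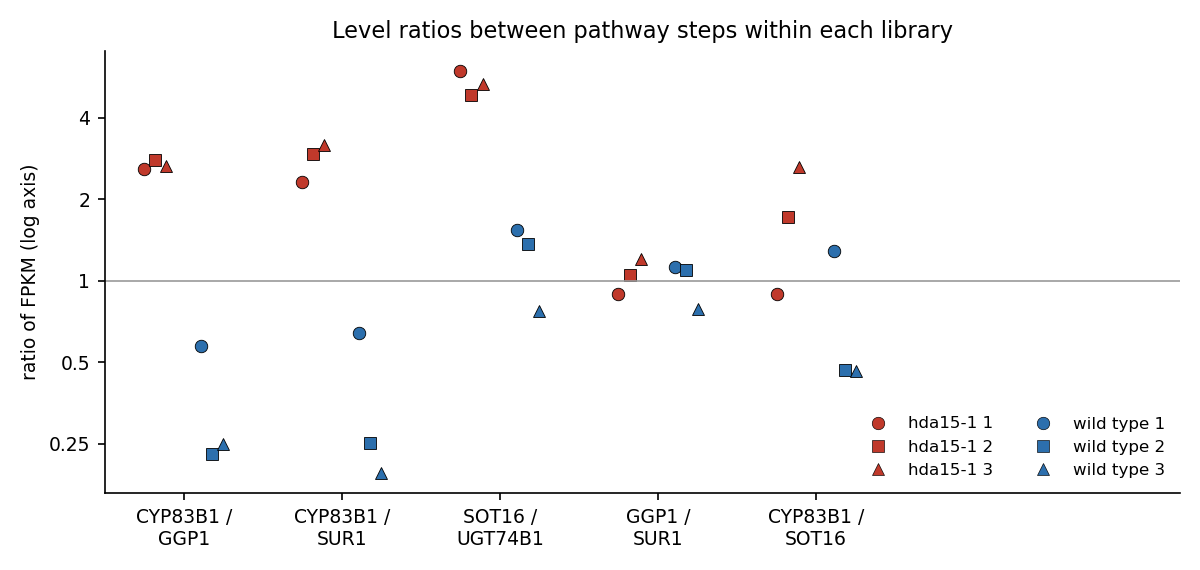
Ratio of FPKM between 2 pathway genes within each library, on a log axis, hda15-1 left of wild type, with the symbol marking the library number and the grey line a ratio of 1. CYP83B1 over GGP1 sits at 2.60 to 2.80 in hda15-1 and 0.229 to 0.572 in wild type, while GGP1 over SUR1 overlaps between genotypes.

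The members did not vary together among the mutant libraries. CYP83B1, GGP1 and SUR1 were lowest in hda15-1 1 and highest in hda15-1 3, with CYP83B1 over GGP1 nearly constant at 2.68 ± 0.103 (SD, n = 3). SOT16 was instead highest in hda15-1 1 and lowest in hda15-1 3, and IGMT5 was also highest in hda15-1 1. CYP83B1 over SOT16 was therefore 0.894, 1.72 and 2.64 in hda15-1, and 1.28, 0.467 and 0.463 in wild type. The summed FPKM of a library was 879239 in hda15-1 1 and 1159520 in hda15-1 3, the lowest and the highest of the 6, and its part in these orders was not tested. In wild type, the library numbered 1 was highest for 5 of the 8 members tested, among them CYP83B1, SOT16, IGMT5 and MYB34. EXPA2, an expansin of germinating seeds, was at 156.3, 163.7 and 247.4 FPKM in hda15-1, against 78.6, 17.2 and 19.9 FPKM in wild type, so it too was highest in wild type 1 among the wild-type libraries. Its part in the member values was not tested.

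The rest of the pathway was taken from 7 lists holding 74 further genes, of which 73 had a row and 36 passed the minimum mean. Limma called 0 of the 36, higher or lower, where 0.199% of all genes tested were called higher and 0.0199% lower. With shares this low, a count of 0 is usual for lists of this size, here and in each list below. At an unadjusted p under 0.05 there were 10 of the 36, against 3.08% of all genes tested that were higher and 1.2% that were lower at that level. The groups did not overlap in 8 with hda15-1 higher and in 1 with hda15-1 lower, where all genes tested gave 5.78% and 3.43%. The median log2 difference of the 36 was 0.26, against 0.02 over all genes tested, and 29 of them were above 0, as were 54.4% of all.

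**Figure D4:**
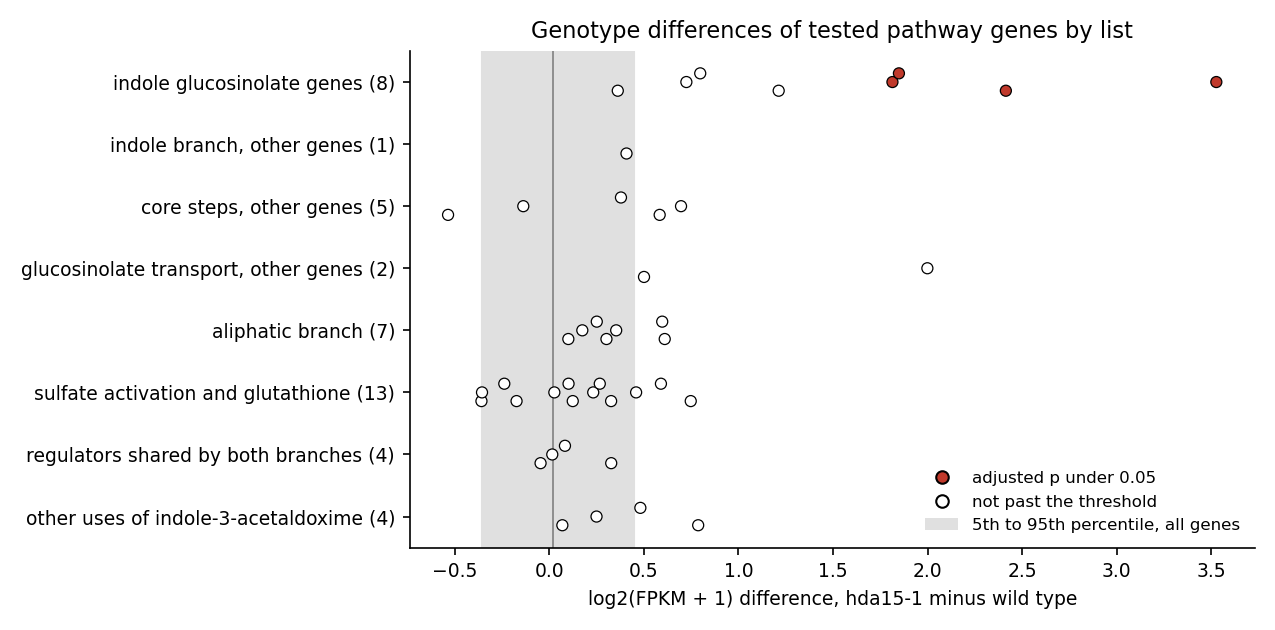
Each point is a tested gene, placed by its log2(FPKM + 1) difference, hda15-1 minus wild type; rows are gene lists with their number of tested genes, filled points passed an adjusted p of 0.05, and the grey band spans the 5th to 95th percentile of all 15045 genes, from -0.36 to 0.45. The filled points are the 4 called members, and UMAMIT30 at 2.0 is the open point farthest to the right.

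Of the other 10 genes of the indole branch, 1 was tested. CYP81F1 (AT4G37430), a ring hydroxylase, was at 8.54, 12.2 and 7.72 FPKM in hda15-1 and at 8.16, 5.36 and 7.13 FPKM in wild type, with overlapping groups. Of the other activators of the branch, MYB51 was at most 0.202 FPKM in any library, and MYB122 was listed at 0 in all 6, where a 0 can be a failed estimate. CYP81F4, known to hydroxylate the ring position that IGMT5 then methylates, was at 0, 0.104 and 0 FPKM in hda15-1 and at 0, 0 and 0.0433 FPKM in wild type. IGMT1 to IGMT4, of which IGMT1 and IGMT2 are known to methylate another ring position, reached at most 0.412 FPKM, in contrast to IGMT5. CYP81F2, which hydroxylates that position, was at 1.66, 0.631 and 1.06 FPKM in hda15-1, against 0.122, 0.0482 and 0.0478 FPKM in wild type. It was below the minimum mean and is named, like MYB51, MYB122 and CYP81F4, after its values were seen. With no filter on low values its adjusted p was 0.216 in limma.

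Among the other genes of the core steps, 0 of 5 tested genes were called in limma, 2 had an unadjusted p under 0.05, and the list's median log2 difference was 0.38. SOT18, a sulfotransferase mainly of the aliphatic branch, was at 3.50, 3.16 and 2.14 FPKM in hda15-1, against 1.46, 1.49 and 1.25 FPKM in wild type (adjusted p = 0.689, limma). GSTF10, a glutathione transferase gene, had the lowest log2 difference of the tested genes of the list, -0.53. It was at 3.44, 2.11 and 3.17 FPKM in hda15-1 and 5.73, 4.12 and 4.08 FPKM in wild type (adjusted p = 1.000, limma). Its groups did not overlap, with hda15-1 lower. GSTU13, a glutathione transferase linked to the indole branch, was at 58.2, 80.5 and 93.9 FPKM in hda15-1 and at 54.7, 55.5 and 65.1 FPKM in wild type. SOT17, below the minimum mean and named after its values were seen, was at 1.05, 1.03 and 1.90 FPKM in hda15-1, against 0, 0.124 and 0.0630 FPKM in wild type. Its adjusted p with no filter was 0.0865 in limma.

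Transport genes other than GTR2 gave 2 tested genes, neither called. In limma 2 had an unadjusted p under 0.05, where 3.08% of all genes tested were higher at that level. The median log2 difference was 1.25, and the groups did not overlap in 2, with hda15-1 higher. UMAMIT30, of the glucosinolate transport list, was at 10.1, 4.23 and 9.85 FPKM in hda15-1, against 2.10, 1.01 and 0.583 FPKM in wild type. Its groups did not overlap, and its log2 difference of 2.0 ± 0.36 (SE) exceeded that of every member other than CYP83B1 and SOT16, with an adjusted p of 0.137 in limma. GTR1, the close relative of GTR2, was at 15.7, 11.7 and 12.9 FPKM in hda15-1, against 11.6, 8.03 and 8.18 FPKM in wild type (adjusted p = 1.000, limma). The GTR2 transcript shares 9 of its 2353 words of 30 bases with GTR1.

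The aliphatic branch, which makes glucosinolates from methionine, had few genes above the minimum mean. Of its 25 genes 24 had a row, and 10 of these were listed at 0 in all 6 libraries. Among them were the activators MYB28, MYB29 and MYB76 and the enzyme genes CYP79F1 and CYP79F2. Limma called 0 of the 7 tested, 2 had an unadjusted p under 0.05, and the median log2 difference was 0.30. IPMI-SSU2, a small subunit of the chain-elongating isomerase, was at 7.68, 8.18 and 6.78 FPKM in hda15-1, against 3.98, 4.22 and 5.88 FPKM in wild type (adjusted p = 0.825, limma). AOP1, of a family that modifies side chains, was at 1.76, 1.95 and 2.69 FPKM in hda15-1, against 0.953, 1.19 and 0.969 FPKM in wild type (adjusted p = 0.834, limma). FMO-GS-OX4, a flavin monooxygenase that oxidises the side chain, was below the minimum mean and is named after its values were seen. It was at 1.36, 0.510 and 1.01 FPKM in hda15-1, against 0, 0.0385 and 0 FPKM in wild type, without overlap, and its adjusted p with no filter was 0.179 in limma. IPMI-LSU1, the large subunit, was at 144, 109 and 137 FPKM in hda15-1 and at 77.2, 124 and 119 FPKM in wild type.

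Sulfate activation supplies the sulfate donor that SOT16 uses, and glutathione supplies the reduced sulfur. Limma called 0 of the 13 tested genes of this list, 2 had an unadjusted p under 0.05, and the median log2 difference was 0.12. APR1, an APS reductase, was at 12.3, 12.3 and 12.5 FPKM in hda15-1, against 5.96, 8.35 and 6.74 FPKM in wild type (adjusted p = 0.362, limma). APS3, an ATP sulfurylase, was at 5.10, 6.08 and 6.62 FPKM in hda15-1, against 3.82, 3.71 and 4.59 FPKM in wild type. The APS kinase genes, whose product is the donor itself, were mixed. APK1 was at 10.4, 18.8 and 28.5 FPKM in hda15-1 and at 11.3, 12.9 and 10.4 FPKM in wild type, with overlapping groups. APK3 and APK4, named after their values were seen, had log2 differences of -0.358 and -0.237, also with overlapping groups. APK2, below the minimum mean and named after its values were seen, was at 0.972, 1.05 and 0.766 FPKM in hda15-1, against 0, 0 and 0.0579 FPKM in wild type. With no filter on low values it was the 1 gene of the 7 lists that limma called, with an adjusted p of 0.0234. APK2 is the next protein-coding gene before CYP79B2, 3436 bp away and on the same strand.

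Regulators shared by both branches differed little, with 0 of 4 tested genes called in limma, none with an unadjusted p under 0.05, and a median log2 difference of 0.05. MYC2, a basic helix-loop-helix partner of these MYB factors, was at 4.82, 3.50 and 4.04 FPKM in hda15-1 and at 2.51, 3.63 and 3.10 FPKM in wild type. Its relative MYC3 was at 30.9, 17.9 and 18.6 FPKM in hda15-1 and at 15.9, 28.8 and 24.8 FPKM in wild type. SLIM1, a regulator of the response to sulfur shortage, was at 17.1, 21.3 and 16.9 FPKM in hda15-1 and at 16.5, 17.3 and 17.9 FPKM in wild type. Other uses of indole-3-acetaldoxime gave 4 tested genes, of which limma called 0 and 2 had an unadjusted p under 0.05, with a median log2 difference of 0.37. AMI1, an amidase, was at 17.9, 15.7 and 15.5 FPKM in hda15-1, against 10.5, 11.4 and 12.5 FPKM in wild type (adjusted p = 0.896, limma). The nitrilase NIT2 was at 9.42, 5.41 and 4.15 FPKM in hda15-1 and at 4.29, 2.28 and 2.86 FPKM in wild type. Its relative NIT1 was the most abundant gene of all the lists, at 1334, 937 and 1172 FPKM in hda15-1 and at 915, 955 and 996 FPKM in wild type.

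No tested gene next to a member was called, where 0.219% of all genes tested were called in either direction. With a share this low, 0 of 20 does not set these genes apart. APK2, next to CYP79B2, was called with no filter. The 2 nearest protein-coding genes on each side that do not overlap the member are 40 genes over the 10 members, of which 20 were tested. HA11, which overlaps GTR2, and AT1G76780, which overlaps IGMT5, are therefore not among them. Limma called 0 of the 20, and 1 had an unadjusted p under 0.05 (SOT18, beside SOT16). Of all genes tested, 3.08% were higher and 1.2% lower at that level. The median log2 difference of the 20 was -0.00267, with 10 of the 20 above 0. The gene 179 bp beyond CYP83B1, AT4G31490, named after its values were seen, was at 14.4, 8.91 and 8.73 FPKM in hda15-1 and at 7.85, 9.64 and 10.1 FPKM in wild type.

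The genes whose pattern over the 6 libraries was most like the members were found by the root mean square distance between centred log2(FPKM + 1) values and the mean profile of the 8 members, among 10467 other genes that averaged 5 FPKM or more. The median distance was 0.821. Nearest were HA2, a plasma membrane proton pump gene, at 0.103, and AT2G39415 at 0.128, followed by RALFL34, HHP3, the sucrose carrier gene SUC2, the homeobox gene HB5, the abscisic acid receptor gene PYL4 and the arabinogalactan protein gene AGP31 at 0.237 to 0.290. HA2 was at 32.4, 33.8 and 40.8 FPKM in hda15-1, against 13.6, 12.3 and 11.8 FPKM in wild type. None of these 8 genes belongs to the lists. By the same measure MYB34 was the member nearest to the mean profile, at 0.151, and CYP83B1 was the farthest, at 1.06, with a larger difference than the others.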

How the data were processed

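Each library came as 1 table of FPKM, the unit named in the headers the authors deposited. Bowtie 0.12.2, Cufflinks, Cuffdiff and the build TAIR10 are listed in the submitters' processing notes. The sources used here give no annotation version, settings or strand. Of 32884 rows, 32538 matched a locus of TAIR10.1. An exact 0 can be a failed estimate. Read totals are unknown. Low values gave relative depths of 0.917 to 1.25, with wild type 1 set to 1, but only 29.0% to 30.4% of them lay within 0.1 of a whole read, so no count test was run.

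The test was limma 3.58.1 (R version 4.3.3) with a variance trend and genotype as the only term, on log2(FPKM + 1), for genes averaging 1 FPKM or more. Such differences understate changes of low genes. Tests were two-sided, adjusted by Benjamini-Hochberg over 15045 genes, with a threshold of 0.05. With 3 libraries against 3, p-values set each difference against the spread between these libraries, moderated over all genes tested. As that spread may be technical, they may not cover variation between seed batches.

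Members and lists were chosen with earlier results of these data known. Named genes were HDA15, the members, up to 3 tested genes of smallest p from each other list, the 8 nearest in pattern and genes that overlap a member; marker genes and any others were chosen after their values were seen. Alternatives changed the pseudocount, filter, scaling, variance trend, replicate block and libraries used.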

Additional observations from a re-analysis of the deposited data

How the results depend on the processing

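The counts of calls depended on the filter and on single libraries. Every member kept a log2 difference above 0 under each alternative, but most alternatives could not reverse the sign of members whose groups did not overlap. The number of genes higher in hda15-1 was 30, 13 for genes averaging 5 FPKM or more, 73 among the 4 libraries numbered 2 and 3, and 8 to 31 with 1 library left out. It was 8 without hda15-1 2, 9 without wild type 2, 10 without hda15-1 3 and 10 without wild type 3. The number of lower genes was 3, with 12 among the libraries numbered 2 and 3 and 3 to 5 with 1 library left out. The number of members called was 4, with 2 under no filter, 2 among genes averaging 5 FPKM or more, and 1 to 4 with 1 library left out. Other pathway genes called higher were 0, and 1 with no filter (APK2). The causes were not tested. Same-numbered libraries did not deviate together (correlations over genes of -0.079, -0.114 and -0.162). Differently numbered libraries gave -0.0763 to 0.214. These values show no pairing by number, but cannot tell whether same-numbered libraries were handled together. A replicate block gave 13 higher genes and 2 members called. CYP79B2, CYP79B3, CYP81F2, SOT17, FMO-GS-OX4 and APK2 are at low levels, which limits how closely their differences can be sized.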
